A study of Homo sapiens with 16 samples.

Results

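The response to tumour necrosis factor (TNF) after knockdown of UXT was read from 2 poly(A) RNA-seq libraries of HCT116, an established human colorectal carcinoma line. One library came from cells transfected with a small interfering RNA against UXT and treated with TNF (siUXT TNF), and the other from cells with the same transfection and phosphate-buffered saline (siUXT PBS). They were set beside 4 libraries of the same line: siEZH1 TNF and siEZH1 PBS, with a small interfering RNA against EZH1, and NC TNF and NC PBS, a transfection whose letters the labels do not spell out. Each of the 6 conditions had 1 library, so no difference between siUXT TNF and siUXT PBS has a replicate check, and the chromatin samples of the series were not analysed here. The labels give neither the dose nor the duration of TNF, and they do not say whether the TNF and PBS libraries of a transfection came from separate cultures.

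The values were FPKM, fragments scaled by transcript length and library size, for 28501 gene symbols. Symbols with identical values were merged into 1 locus, and a locus belonged to the comparison if its mean over siUXT TNF and siUXT PBS was at least 1 FPKM. This left 11799 loci of the 17641 that were above 0 in at least 1 of the 6 libraries, and 10950 of them carried a protein-coding symbol. The mean was 1.00 FPKM at the lowest locus inside the limit (LOC646626) and 0.998 FPKM at the highest locus outside it (ZNF132). The response of a locus is the log2 ratio of FPKM + 1 in siUXT TNF over siUXT PBS, a scale that understates how much weakly expressed genes changed.

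TNF is a cytokine that binds TNFRSF1A at the cell surface and, through the TRADD, RIPK1 and TRAF2 adaptors and the IKK kinases, releases NF-kB dimers of RELA, NFKB1 and their relatives into the nucleus. There NF-kB switches on chemokine and survival genes and also the genes of its own inhibitors, such as NFKBIA and TNFAIP3, which end the response. UXT encodes a small prefoldin-like protein known as a partner of nuclear RELA, and EZH1 and SUZ12 are subunits of Polycomb repressive complex 2 (PRC2), which methylates lysine 27 of histone H3. The title of the series names an EZH1 and SUZ12 complex as a positive regulator of NF-kB target genes that acts with UXT, and the comparison asks what the TNF response looked like where UXT was lowered.

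UXT itself had 24.6 FPKM in siUXT TNF and 27.7 FPKM in siUXT PBS, 77.1 and 64.9 FPKM in siEZH1 TNF and siEZH1 PBS, and 59.6 and 62.2 FPKM in NC TNF and NC PBS. Both siUXT libraries lay below the other 4, as their labels say. FPKM sums per library lay between 617993 and 649477, and read counts are not given. Of 18 colorectal epithelial markers, 10 reached a mean of 1 FPKM and 2 were listed at 0 in every library (CEACAM5 among them), and the markers summed to 2383 FPKM in siUXT TNF and 2719 FPKM in siUXT PBS, against a range of 1836 to 2719 FPKM over all 6 libraries. Immune cell markers summed to between 2.04 and 3.47 FPKM, with PTPRC, CD3E and CD14 listed at 0 throughout, and fibroblast and endothelial markers to between 26.7 and 32.6 FPKM. The siUXT PBS library stood apart from the other 5 at many loci. The mean of siEZH1 PBS and NC PBS was therefore used as a further baseline of siUXT TNF, and list counts, list medians and genes are given over it as well where they rest on siUXT PBS.

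The promoters of 5 genes that were far higher in siUXT TNF than in siUXT PBS show a form of the sequence that NF-kB dimers read. Each is given from 250 bases before to 50 bases after the annotated start, 5′ to 3′ on the gene's strand, from RefSeq on GRCh38.p14, and capitals mark a match to GGANNTTCC on either strand, letters that overlap the GGAA core read by ETS-family factors. The windows are chr4:73740319-73740618 on the plus strand for IL8 (now named CXCL8), chr4:73869143-73869442 on the plus strand for CXCL1, chr14:35404700-35404999 on the minus strand for NFKBIA, chr6:137867009-137867308 on the plus strand for TNFAIP3 and chr19:10270870-10271169 on the plus strand for ICAM1.
IL8: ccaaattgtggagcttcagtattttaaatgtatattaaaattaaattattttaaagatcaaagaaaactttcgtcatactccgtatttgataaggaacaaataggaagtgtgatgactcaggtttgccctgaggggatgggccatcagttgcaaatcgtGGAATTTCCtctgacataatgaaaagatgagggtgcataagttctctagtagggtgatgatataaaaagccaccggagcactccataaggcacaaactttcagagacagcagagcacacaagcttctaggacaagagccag
CXCL1: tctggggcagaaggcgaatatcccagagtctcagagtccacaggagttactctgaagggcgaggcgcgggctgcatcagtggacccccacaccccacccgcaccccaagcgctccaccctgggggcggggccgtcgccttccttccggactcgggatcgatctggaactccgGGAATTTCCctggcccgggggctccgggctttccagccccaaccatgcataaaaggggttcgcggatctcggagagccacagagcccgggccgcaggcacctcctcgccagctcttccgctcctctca
NFKBIA: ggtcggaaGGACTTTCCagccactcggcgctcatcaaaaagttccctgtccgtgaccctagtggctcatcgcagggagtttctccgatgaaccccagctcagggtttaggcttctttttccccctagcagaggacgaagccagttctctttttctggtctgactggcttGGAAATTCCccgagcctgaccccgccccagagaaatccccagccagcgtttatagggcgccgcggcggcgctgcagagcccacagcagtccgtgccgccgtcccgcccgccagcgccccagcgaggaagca
TNFAIP3: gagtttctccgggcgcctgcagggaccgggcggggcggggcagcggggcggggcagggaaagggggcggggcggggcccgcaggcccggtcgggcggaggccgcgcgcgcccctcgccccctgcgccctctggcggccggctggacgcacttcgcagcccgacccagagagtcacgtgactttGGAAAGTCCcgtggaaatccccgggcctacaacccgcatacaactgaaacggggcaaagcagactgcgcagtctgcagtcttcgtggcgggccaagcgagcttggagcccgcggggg
ICAM1: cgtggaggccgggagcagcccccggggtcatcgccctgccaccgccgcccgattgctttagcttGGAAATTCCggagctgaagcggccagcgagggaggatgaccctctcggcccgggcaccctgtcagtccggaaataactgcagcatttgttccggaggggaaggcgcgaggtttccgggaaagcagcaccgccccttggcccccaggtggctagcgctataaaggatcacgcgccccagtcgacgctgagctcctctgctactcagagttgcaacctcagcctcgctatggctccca
The match began 91 bases before the start in IL8, 78 in CXCL1, 67 in TNFAIP3 and 186 in ICAM1, and NFKBIA held one 242 bases and one 81 bases before its start. The CXCL2 and CXCL3 windows also held a match, while the windows of CCL20, BIRC3, IRF1 and BIRC2 held none. Only GGANNTTCC was searched, so a window without a match may hold another form of the sequence. RELB and GMFB were not matched to a promoter.

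**Figure D1:**
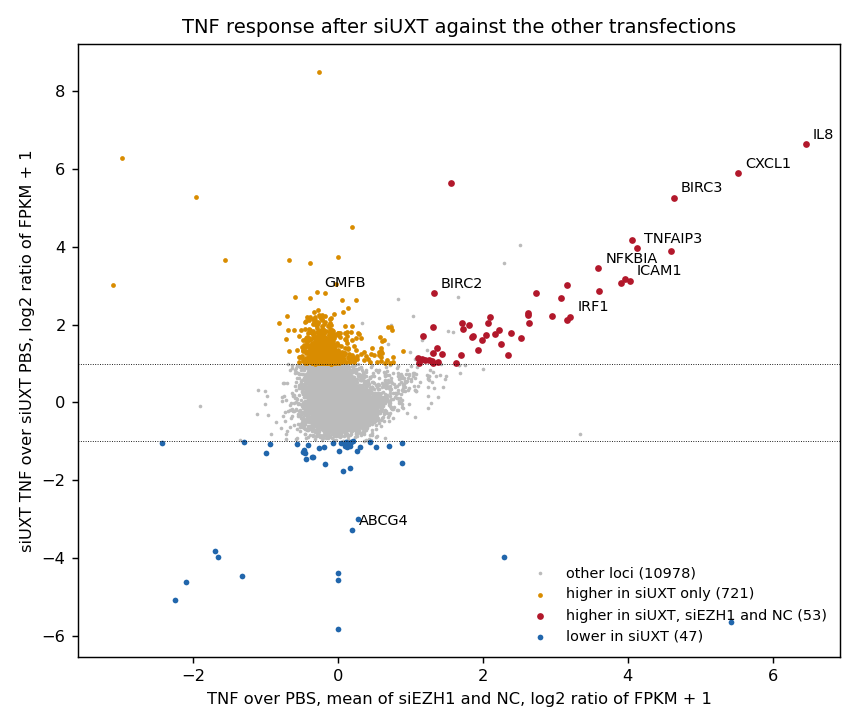
Each point is 1 of 11799 loci, with the mean log2 ratio of FPKM + 1 for TNF over PBS in siEZH1 and NC on the x axis and the log2 ratio of siUXT TNF over siUXT PBS on the y axis. Dotted lines mark 2-fold; the 53 loci past it in all 3 transfections run along the diagonal up to IL8, and the 721 loci past it in siUXT only stand in a column near 0 on the x axis.

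The siUXT response held 2 groups of genes. TNF target genes known from many cell types were far higher in siUXT TNF, as they were in siEZH1 TNF and NC TNF, and a much larger group was higher in siUXT TNF than in siUXT PBS while siUXT TNF itself lay close to the other TNF libraries. Of the 11799 loci, 792 (6.71%) were at least 2-fold higher in siUXT TNF and 47 (0.398%) at least 2-fold lower. In siEZH1 116 loci (0.983%) were higher under TNF and 29 (0.246%) lower, and in NC 142 (1.2%) were higher and 18 (0.153%) lower. With the mean of siEZH1 PBS and NC PBS as the baseline, 135 loci (1.14%) were at least 2-fold higher in siUXT TNF and 18 (0.153%) lower. Of the 792 loci, 53 were also at least 2-fold higher in both other transfections, 18 in 1 of them and 721 in neither. The median ratio over all loci was -0.05 in siUXT, 0.01 in siEZH1 and -0.02 in NC, and the SD over loci was 0.58, 0.35 and 0.37 in the same order.

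Whether the siUXT response differed from the mean response in siEZH1 and NC was tested with limma across all 6 libraries. The test takes its error from the spread between the siEZH1 and NC responses and assumes that the lone siUXT pair varies like them, and it cannot tell an effect of UXT knockdown from a peculiarity of 1 siUXT library. At a Benjamini-Hochberg adjusted p of 0.05, the response was higher in siUXT at 2180 loci (18.4% of the 11844 tested) and lower at 1563 (13.2%). Without the trend in limma these counts were 1417 and 180. With no filter on low values limma called 0 loci in either direction, and 4866 of 17641 loci had an unadjusted p under 0.05. The genes given below are named mainly for the size of their siUXT ratio, which favours a called difference in the direction of that ratio. Across the 11799 loci the siUXT response had a Spearman correlation of -0.25 with that in siEZH1 and -0.31 with that in NC, while siEZH1 and NC had 0.48 with each other. These describe loci of single libraries that share their line. The Spearman correlation of the response with genomic gene span, over 10568 loci of 1 protein-coding gene, was 0.23 in siUXT, -0.18 in siEZH1 and -0.22 in NC.

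The chemokine genes, whose products draw neutrophils and lymphocytes, gave the highest ratios. IL8 had 132 FPKM in siUXT TNF and 0.321 FPKM in siUXT PBS, 96.5 and 0.447 FPKM in siEZH1 TNF and siEZH1 PBS, and 149 and 0.307 FPKM in NC TNF and NC PBS. CXCL1 had 73.4 FPKM in siUXT TNF and 0.244 FPKM in siUXT PBS, 82.6 and 0.678 FPKM in siEZH1 TNF and siEZH1 PBS, and 95.6 and 1.29 FPKM in NC TNF and NC PBS. For both genes the 3 TNF libraries lay far above the 3 PBS libraries, with no overlap, and the log2 ratio in siUXT was 6.65 for IL8 and 5.90 for CXCL1. CXCL2 and CCL20 had 17.1 and 13.8 FPKM in siUXT TNF and were listed at 0 in siUXT PBS. CXCL3 had 10.5 FPKM in siUXT TNF and 0.275 FPKM in siUXT PBS, against 20.5 and 0.343 FPKM in siEZH1 and 21.5 and 0.478 FPKM in NC. The siUXT TNF value of CXCL3 was the lowest of the 3 TNF libraries, and its response was lower in siUXT by the limma test (log2 difference -0.79 ± 0.22 SE, adjusted p = 0.040). Of 6 chemokine loci, 5 were at least 2-fold higher and none lower in siUXT TNF, with a median log2 ratio of 4.03 in siUXT, 4.08 in siEZH1 and 4.82 in NC. The same count was 5, and the median 3.71, over the mean of the other PBS libraries. For this list and those below, the shares of all loci at least 2-fold higher were 6.71% over siUXT PBS and 1.14% over that mean.

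Among the NF-kB subunit genes 4 of 5 were at least 2-fold higher in siUXT TNF, with a median log2 ratio of 1.78, and over the mean of the other PBS libraries 3 of 5 were, with a median of 1.85. RELB, the partner of NFKB2 in the noncanonical dimer, had 47.2 FPKM in siUXT TNF and 5.59 FPKM in siUXT PBS, against 41.6 and 2.35 FPKM in siEZH1 and 56.9 and 3.97 FPKM in NC. NFKB2 had 146 FPKM in siUXT TNF and 41.7 FPKM in siUXT PBS, against 126 and 22.9 FPKM in siEZH1 and 130 and 24.3 FPKM in NC. For both genes the siUXT PBS value was the highest of the 3 PBS libraries while siUXT TNF was not the lowest of the TNF libraries, and the response was lower in siUXT by limma (log2 difference -0.74 ± 0.16 SE, adjusted p = 0.019 for RELB, and -0.61 ± 0.11 SE, adjusted p = 0.013 for NFKB2). NFKB1, the p50 precursor, had 39.2 FPKM in siUXT TNF and 9.79 FPKM in siUXT PBS, with log2 ratios of 1.90 in siUXT, 1.68 in siEZH1 and 1.78 in NC. RELA, the transactivating subunit, had 42.7 FPKM in siUXT TNF and 42.8 FPKM in siUXT PBS, the highest of the PBS libraries. Its log2 ratio was -0.004 in siUXT, 0.38 in siEZH1, 0.37 in NC and 0.34 over the mean of the other PBS libraries. REL was low, with 2.17 FPKM in siUXT TNF and 0.0534 FPKM in siUXT PBS. Its log2 ratio of 1.59 became 0.92 over the mean of the other PBS libraries.

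Of 17 inhibitors and brakes of NF-kB, 6 were at least 2-fold higher in siUXT TNF and none lower, with a median log2 ratio of 0.86 in siUXT, 0.90 in siEZH1 and 0.84 in NC. With the other PBS libraries as the baseline 8 were higher, with a median of 0.89. NFKBIA, the IkB-alpha inhibitor that holds NF-kB in the cytoplasm, had 261 FPKM in siUXT TNF and 22.8 FPKM in siUXT PBS, against 309 and 28.2 FPKM in siEZH1 and 379 and 26.9 FPKM in NC. TNFAIP3, the ubiquitin-editing enzyme A20, had 28.9 FPKM in siUXT TNF and 0.916 FPKM in siUXT PBS, against 35.8 and 1.22 FPKM in siEZH1 and 37.0 and 1.07 FPKM in NC. Both siUXT values were the lowest of their treatment for each gene, and the ratios lay close together (for NFKBIA 3.46, 3.41 and 3.77 and for TNFAIP3 3.96, 4.05 and 4.20 in siUXT, siEZH1 and NC). NFKBIE, a further IkB, had 26.0 FPKM in siUXT TNF and 7.06 FPKM in siUXT PBS. BCL3, an atypical IkB that works with p50 and p52 in the nucleus, had 22.9 FPKM in siUXT TNF and 9.34 FPKM in siUXT PBS, against 29.7 and 5.48 FPKM in siEZH1 and 38.1 and 6.19 FPKM in NC. Its siUXT TNF value was the lowest of the TNF libraries and its siUXT PBS value the highest of the PBS libraries, and the response was lower in siUXT (log2 difference -1.13 ± 0.16 SE, adjusted p = 0.0068 by limma).

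**Figure D2:**
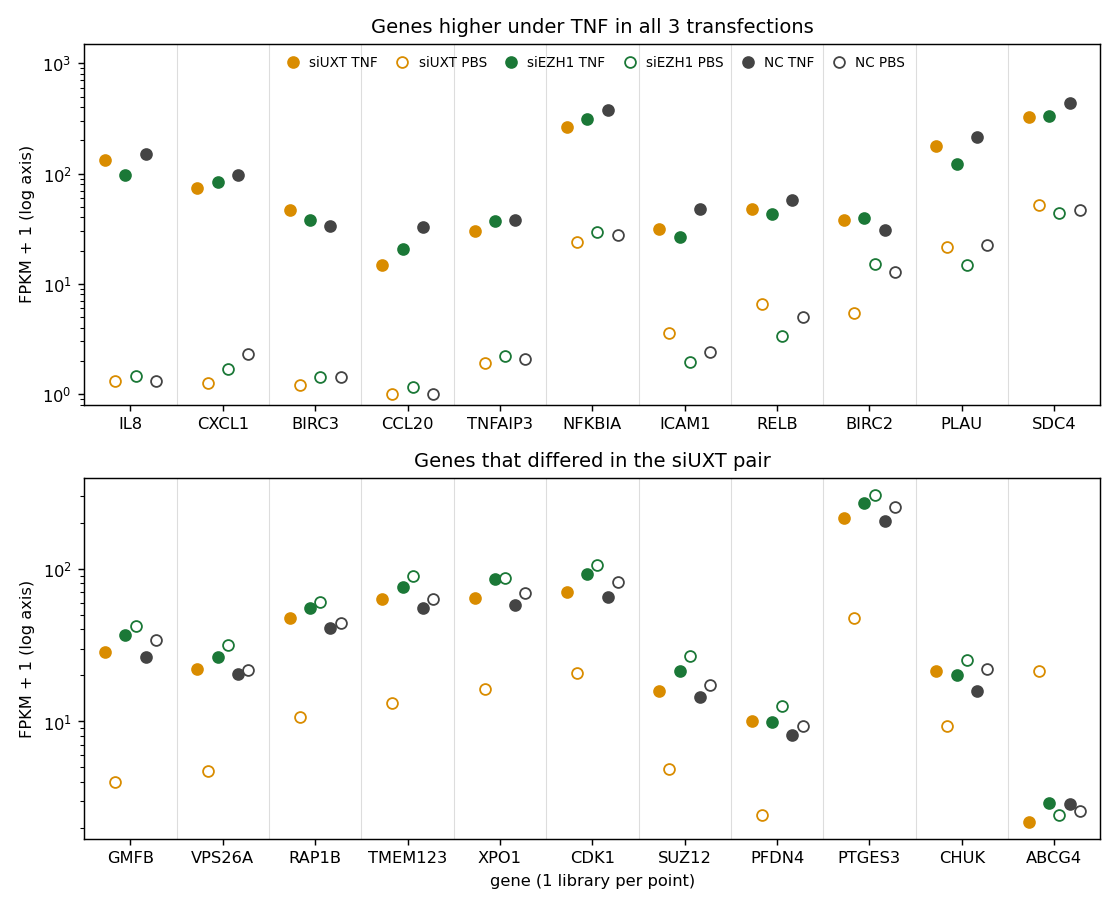
FPKM + 1 on a log axis for each of the 6 libraries (filled, TNF; open, PBS), with genes higher under TNF in all 3 transfections above and genes that differed in the siUXT pair below. In the upper panel all filled points lie above the open points of the same gene; in the lower panel the siUXT PBS point stands alone, below the other 5 except for ABCG4, where it is above.

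Survival and apoptosis genes included the 2 inhibitor of apoptosis genes that lie next to each other on chromosome 11. BIRC3, encoding cIAP2, had 45.5 FPKM in siUXT TNF and 0.204 FPKM in siUXT PBS, against 36.7 and 0.432 FPKM in siEZH1 and 32.6 and 0.438 FPKM in NC. BIRC2, encoding cIAP1, had 36.8 FPKM in siUXT TNF and 4.38 FPKM in siUXT PBS, against 38.3 and 14.05 FPKM in siEZH1 and 29.6 and 11.8 FPKM in NC. The BIRC2 response was higher in siUXT (log2 difference 1.49 ± 0.15 SE, adjusted p = 0.0024 by limma), with a siUXT TNF value between the other TNF libraries and the lowest siUXT PBS value, and over the mean of the other PBS libraries its log2 ratio was 1.44 in place of 2.81. The BIRC3 difference missed the threshold (0.64 ± 0.20 SE, adjusted p = 0.053 by limma). PMAIP1, the BH3-only protein NOXA, had 34.5 FPKM in siUXT TNF and 8.25 FPKM in siUXT PBS, with log2 ratios of 1.94 in siUXT, 0.70 in siEZH1 and 0.68 in NC. The TNF values of siEZH1 and NC were 33.1 and 31.8 FPKM, close to that of siUXT, and siUXT PBS was the lowest of the 6 libraries; over the mean of the other PBS libraries the siUXT ratio was 0.78. Of the 30 loci of this list 4 were at least 2-fold higher in siUXT TNF and none lower, against 6.71% of all loci higher. Over the mean of the other PBS libraries 5 were higher, against 1.14% of all loci. The medians were 0.52 in siUXT, 0.20 in siEZH1 and 0.16 in NC, and 0.29 over the mean of the other PBS libraries.

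Among adhesion and protease genes 6 of 21 were at least 2-fold higher in siUXT TNF over siUXT PBS, against 6.71% of all loci. Over the mean of the other PBS libraries 8 of 21 were, against 1.14% of all loci. ICAM1, the leukocyte adhesion molecule, had 30.1 FPKM in siUXT TNF and 2.55 FPKM in siUXT PBS, against 25.5 and 0.958 FPKM in siEZH1 and 46.5 and 1.42 FPKM in NC. Its siUXT TNF value lay between the other TNF values and its siUXT PBS value was the highest PBS value, and its response was lower in siUXT (log2 difference -0.89 ± 0.25 SE, adjusted p = 0.043 by limma). PLAU, the urokinase plasminogen activator, had 176 FPKM in siUXT TNF and 20.8 FPKM in siUXT PBS, and SDC4, the heparan sulfate proteoglycan syndecan 4, had 328 and 50.4 FPKM in the same libraries. CD83, a surface immunoglobulin-superfamily protein, had 58.1 FPKM in siUXT TNF and 7.43 FPKM in siUXT PBS. All 3 genes had like ratios in the 3 transfections: 3.02, 3.05 and 3.26 for PLAU, 2.68, 2.93 and 3.24 for SDC4 and 2.81, 2.96 and 2.51 for CD83 in siUXT, siEZH1 and NC. Outside these lists TNFAIP2, whose locus also carries an overlapping transcript, had 324 FPKM in siUXT TNF and 37.6 FPKM in siUXT PBS, against 366 and 26.1 FPKM in siEZH1 and 605 and 35.6 FPKM in NC. Its response was lower in siUXT (log2 difference -0.83 ± 0.14 SE, adjusted p = 0.012 by limma).

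Cytokine and growth factor genes gave 4 of 16 loci at least 2-fold higher in siUXT TNF over siUXT PBS. Over the mean of the other PBS libraries 4 were higher as well, but not the same 4. CSF1, PDGFB and IL32 were higher over either baseline, and EREG only over siUXT PBS. LIF was higher only over the mean of the other PBS libraries, with a ratio of 1.36 in place of 0.60. CSF1, the macrophage growth factor, had 11.7 FPKM in siUXT TNF and 2.10 FPKM in siUXT PBS. PDGFB had 42.2 and 7.69 FPKM and IL32 5.33 and 0.389 FPKM in the same libraries. EREG, an EGF receptor ligand, had 188 FPKM in siUXT TNF and 74.4 FPKM in siUXT PBS. It had 196 and 134 FPKM in siEZH1 and 187 and 118 FPKM in NC. Its TNF values lay close together and siUXT PBS was the lowest, and its log2 ratio of 1.33 became 0.57 over the mean of the other PBS libraries.

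Some transcription factor genes of the early response were also higher in siUXT TNF. IRF1, which turns on interferon-type genes, had 58.7 FPKM in siUXT TNF and 11.9 FPKM in siUXT PBS, against 61.6 and 6.16 FPKM in siEZH1 and 92.8 and 8.62 FPKM in NC. JUNB, an AP-1 subunit, had 120 FPKM in siUXT TNF and 37.4 FPKM in siUXT PBS, against 103 and 18.9 FPKM in siEZH1 and 186 and 28.5 FPKM in NC. In both, siUXT PBS was the highest PBS library, and the response was lower in siUXT (log2 difference -1.0 ± 0.14 SE, adjusted p = 0.0063 for IRF1 and -0.87 ± 0.15 SE, adjusted p = 0.010 for JUNB, by limma). JUN had 20.8 FPKM in siUXT TNF and 4.27 FPKM in siUXT PBS, ATF3 18.9 and 4.03 FPKM, and MAFF 18.6 and 4.95 FPKM. Of 29 immediate early loci 8 were at least 2-fold higher in siUXT TNF and none lower, with medians of 0.62 in siUXT, 0.41 in siEZH1 and 0.45 in NC, and over the mean of the other PBS libraries 10 were higher, with a median of 0.64. EGR1, FOS and FOSL1 of that list had ratios of 0.04, -0.03 and -0.02 in siUXT and were chosen after their values were seen. Over the mean of the other PBS libraries these ratios were 0.47, 0.25 and 0.84.

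The components that carry the signal from the receptor to NF-kB held 3 loci of 30 that were at least 2-fold higher in siUXT TNF and none lower. Their median log2 ratio was 0.07, and over the mean of the other PBS libraries 1 was higher. Of all loci 6.71% were higher over siUXT PBS and 1.14% over the mean of the other PBS libraries. MAP3K8, a kinase that activates the ERK pathway, had 4.87 FPKM in siUXT TNF and 0.423 FPKM in siUXT PBS and was also higher in the other transfections, with ratios of 2.04, 2.16 and 1.98 in siUXT, siEZH1 and NC. CHUK, encoding IKK-alpha, had 20.4 FPKM in siUXT TNF and 8.29 FPKM in siUXT PBS, against 19.2 and 24.3 FPKM in siEZH1 and 14.8 and 20.9 FPKM in NC. The low CHUK value was that of siUXT PBS alone, and over the mean of the other PBS libraries the ratio was -0.14. In the interferon list IFNGR1, a chain of the interferon-gamma receptor, had 42.9 FPKM in siUXT TNF and 8.45 FPKM in siUXT PBS, against 46.4 and 19.3 FPKM in siEZH1 and 34.9 and 19.1 FPKM in NC. Its response was higher in siUXT (log2 difference 1.19 ± 0.19 SE, adjusted p = 0.0088 by limma), with siUXT PBS again the lowest library and a ratio of 1.12 in place of 2.22 over the mean of the other PBS libraries. Its partner IFNGR2 had 81.7 FPKM in siUXT TNF and 26.4 FPKM in siUXT PBS. Of the 39 loci of that list 7 were at least 2-fold higher and 1 lower in siUXT TNF, with a median of 0.19, and over the mean of the other PBS libraries 4 were higher and 1 lower, with a median of 0.22.

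The TNF response shared by siEZH1 and NC was therefore examined in siUXT as a whole. Of the 11799 loci, 85 were at least 2-fold higher under TNF in both siEZH1 and NC, and 53 of these were also at least 2-fold higher in siUXT, 52 of the 53 also over the mean of the other PBS libraries. The siUXT ratio was above 0 at 82 of the 85 loci, below both other ratios at 66 and above both at 9. Its median was 1.23, against 1.58 in siEZH1 and 1.75 in NC. The siUXT TNF value was below both other TNF values at 38 of the 85 (44.7%, against 25.1% of all loci). It was above both at 12 (14.1%, against 28.1%). The siUXT PBS value was above both other PBS values at 56 (65.9%, against 48.4%). It was below both at 17, against 38.0% of all loci. The 85 were chosen by high ratios in siEZH1 and NC, which favours high TNF and low PBS values there. These counts and shares are therefore a description and not a test. Over the mean of the other PBS libraries, 73 of the 85 were at least 2-fold higher in siUXT TNF, with a median of 1.43. Among the 32 that did not reach 2-fold in siUXT were ZC3H12A, the endoribonuclease Regnase-1, with log2 ratios of 0.87, 2.07 and 1.94 in siUXT, siEZH1 and NC, and the cytokine LIF, with 0.60, 1.18 and 1.30, both chosen after their values were seen. The siUXT PBS value of each was the highest of the PBS libraries, and over the mean of the other PBS libraries the ratio was 1.47 for ZC3H12A and 1.36 for LIF. Measured over the mean of the other PBS libraries, the siUXT ratio of the genes named above with a lower response by limma was 3.53 for RELB, 2.58 for NFKB2, 2.83 for IRF1, 2.30 for JUNB, 3.83 for ICAM1, 3.35 for TNFAIP2, 3.03 for CXCL3 and 1.81 for BCL3. Of these 8 ratios, all but that of CXCL3 were above the ratio over siUXT PBS. Choosing genes by a lower response favours a high siUXT PBS value, so this rise is a description. The siEZH1 and NC ratios rest on their own PBS libraries, so their baselines differ from this one. The ratios of RELB, IRF1, JUNB, TNFAIP2, CXCL3 and BCL3 lay below the siEZH1 and NC ratios of the same gene. That of ICAM1 lay between them, and that of NFKB2 above both. The RELB ratio was close to that in NC (3.53 against 3.54). For IRF1, TNFAIP2, CXCL3 and BCL3 siUXT TNF was below both other TNF values. It was above siEZH1 TNF for RELB (47.2 against 41.6 FPKM) and JUNB (120 against 103 FPKM).

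**Figure D3:**
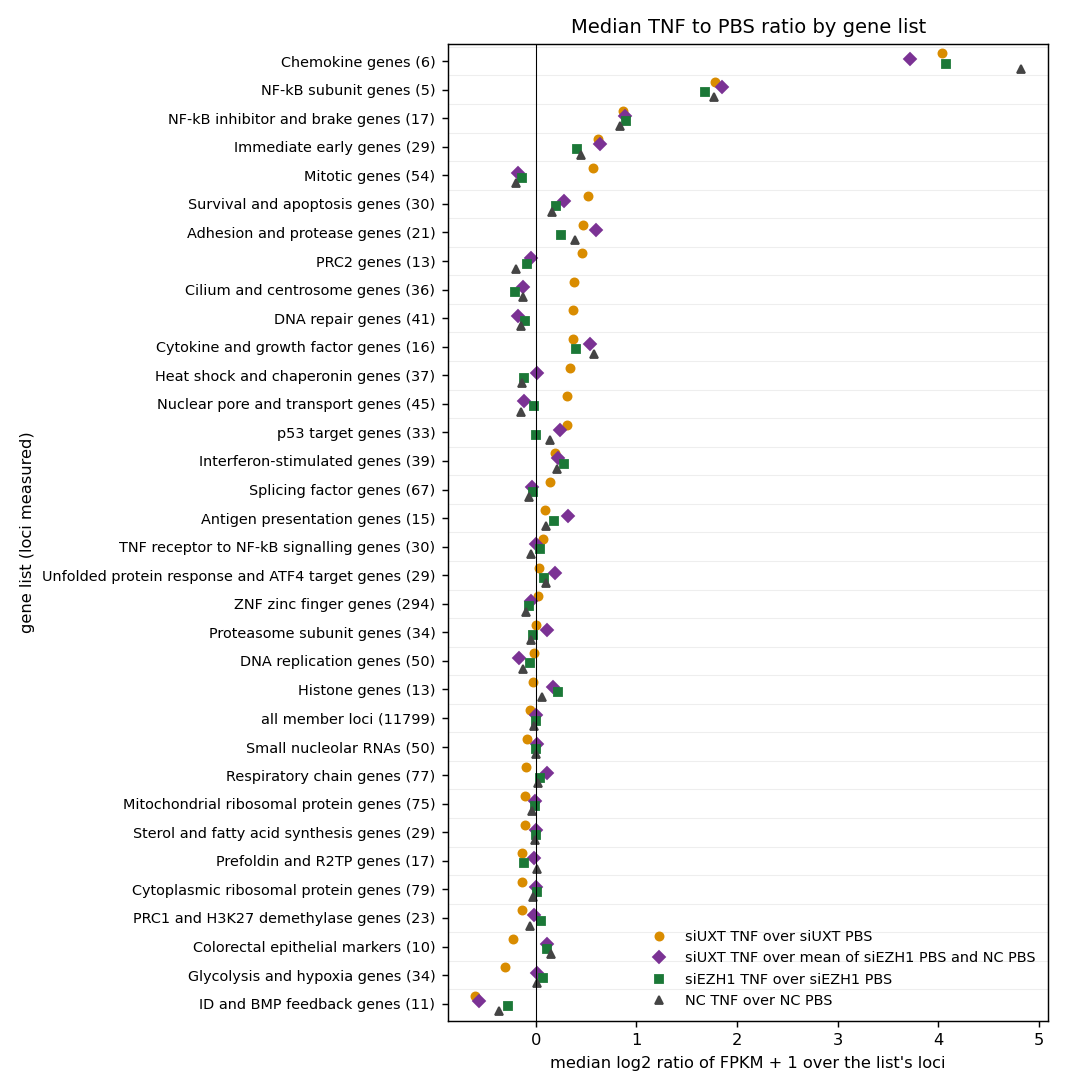
The median log2 ratio of FPKM + 1 over each gene list, with the number of its loci in brackets, for siUXT TNF over siUXT PBS, siUXT TNF over the mean of siEZH1 PBS and NC PBS, siEZH1 TNF over siEZH1 PBS and NC TNF over NC PBS. The chemokine and NF-kB lists stand at the right whichever baseline is used, and the mitotic list stands at 0.57 over siUXT PBS and at -0.18 over the other PBS libraries.

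The 721 loci that were at least 2-fold higher in siUXT only had a median level of 12.5 FPKM in siUXT TNF and 4.07 FPKM in siUXT PBS, 13.1 and 14.4 FPKM in siEZH1 TNF and siEZH1 PBS, and 10.2 and 11.8 FPKM in NC TNF and NC PBS. At 546 of the 721 loci (75.7%, against 6.09% of all loci) siUXT PBS was at least 2-fold below both other PBS libraries, and at 695 (96.4%, against 98.8%) siUXT TNF was within 2-fold of both other TNF libraries. The 721 were chosen by a high ratio of siUXT TNF over siUXT PBS, which favours a low siUXT PBS value, so these shares are a description. In siEZH1 and NC the ratio was below 0 in both transfections at 512 of the 721 (71.0%, against 34.8% of all loci). Over the mean of the other PBS libraries 11 of the 721 were at least 2-fold higher, with a median of -0.12 in place of 1.25. The median genomic span of the gene was 43803 bases for the 660 of these loci with 1 protein-coding gene, 18798 bases for 51 of the 53 loci higher in all 3 transfections, and 30804 bases for all 10568 such loci. The part of gene length in this pattern was not tested. With 1 siUXT PBS library, a peculiarity of that library and an effect of UXT knockdown without TNF cannot be told apart.

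GMFB, encoding glia maturation factor beta, a regulator of actin branches, had 27.5 FPKM in siUXT TNF and 2.998 FPKM in siUXT PBS, against 35.5 and 41.3 FPKM in siEZH1 and 25.2 and 32.9 FPKM in NC. SYNC, an intermediate-filament protein gene, had 21.5 FPKM in siUXT TNF and 2.21 FPKM in siUXT PBS, against 25.1 and 34.4 FPKM in siEZH1 and 21.1 and 19.9 FPKM in NC. In both genes 5 libraries lay together and siUXT PBS lay far below them. The small GTPase gene RAP1B had 46.8 FPKM in siUXT TNF and 9.73 FPKM in siUXT PBS, and the retromer subunit gene VPS26A had 21.1 and 3.77 FPKM. TMEM123 had 62.7 FPKM in siUXT TNF and 12.3 FPKM in siUXT PBS, and the nuclear export receptor gene XPO1 had 63.0 and 15.3 FPKM. In siEZH1 and NC the ratios of these 4 genes lay between -0.26 and -0.04, and over the mean of the other PBS libraries the siUXT ratios of all 6 genes were below 0, the lowest being -0.42 for GMFB.

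Mitotic genes were among this group. Of 54 mitotic loci 18 were at least 2-fold higher in siUXT TNF and none lower, against 6.71% of all loci higher. None in siEZH1 or NC passed 2-fold. By limma the response was higher in siUXT at 32 and lower at 2, against 18.4% higher and 13.2% lower of all loci tested. CDK1, the cyclin-dependent kinase of mitotic entry, had 69.8 FPKM in siUXT TNF and 19.7 FPKM in siUXT PBS, against 90.6 and 104 FPKM in siEZH1 and 64.6 and 80.4 FPKM in NC. TTK, a kinase of the spindle checkpoint, had 11.9 FPKM in siUXT TNF and 3.77 FPKM in siUXT PBS, against 14.5 and 20.3 FPKM in siEZH1 and 10.0 and 14.9 FPKM in NC. Each was lowest in siUXT PBS, the TNF library was the lower of the pair in siEZH1 and NC, and over the mean of the other PBS libraries the siUXT ratio was -0.40 for CDK1 and -0.53 for TTK. The median of the mitotic list was 0.57 over siUXT PBS, 0.28 there when the mean had to reach 5 FPKM, and -0.18 over the mean of the other PBS libraries, over which none of the 54 was 2-fold higher. Of 50 DNA replication loci 4 were at least 2-fold higher over siUXT PBS, near the 6.71% of all loci, with a median of -0.02. Of 41 DNA repair loci 6 were at least 2-fold higher over siUXT PBS, with a median of 0.37, and 0 over the other PBS libraries, with a median of -0.18. One of the 6 was NBN of the MRN break-sensing complex, with 11.2 FPKM in siUXT TNF and 3.43 FPKM in siUXT PBS. These are bulk libraries with 1 siUXT PBS library. Fewer dividing cells, less RNA per cell and a peculiarity of that library cannot be told apart.

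Of the genes that the series title names, SUZ12 was lowest in siUXT PBS, and EZH1 and UXT were not. SUZ12 had 14.7 FPKM in siUXT TNF and 3.92 FPKM in siUXT PBS, against 20.5 and 25.9 FPKM in siEZH1 and 13.4 and 16.4 FPKM in NC. EED, the PRC2 subunit that binds methylated lysine 27, had 12.3 FPKM in siUXT TNF and 4.73 FPKM in siUXT PBS, against 12.6 and 16.3 FPKM in siEZH1 and 9.60 and 11.0 FPKM in NC. These were the 2 of 13 PRC2 loci at least 2-fold higher in siUXT TNF, both lowest in siUXT PBS, with ratios of -0.49 for SUZ12 and -0.14 for EED over the mean of the other PBS libraries, and the median of the list was 0.46 over siUXT PBS and -0.04 over the mean of the other PBS libraries. EZH2, the methyltransferase of dividing cells, had 29.4 FPKM in siUXT TNF and 21.1 FPKM in siUXT PBS, and EZH1 had 6.23 and 6.27 FPKM. Of 17 prefoldin and R2TP loci 3 were at least 2-fold higher, led by the prefoldin subunit gene PFDN4 with 9.09 FPKM in siUXT TNF and 1.46 FPKM in siUXT PBS, while the median of the list was -0.14. None of the 17 was 2-fold higher, and 1 was lower, over the mean of the other PBS libraries. UXT, the gene knocked down, had a ratio of -1.34 over that baseline. For comparison, 6.71% of all loci were at least 2-fold higher over siUXT PBS and 1.14% over the mean of the other PBS libraries. Of 37 heat shock and chaperonin loci 7 were at least 2-fold higher over siUXT PBS, with a median of 0.34. Over the other PBS libraries 0 were, with a median of 0.01. The 7 include the HSP90 co-chaperone p23 gene PTGES3 with 214 FPKM in siUXT TNF and 46.6 FPKM in siUXT PBS, against 269 and 304 FPKM in siEZH1 and 205 and 253 FPKM in NC. EPCAM, an epithelial surface marker, had 127 FPKM in siUXT TNF and 58.7 FPKM in siUXT PBS, and the siUXT PBS value was the lowest of the 6 although the summed epithelial markers were highest in that library.

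Fewer loci were lower than higher in siUXT TNF. Of the 47, 24 carried a protein-coding symbol, 10 were at least 2-fold lower in at least 1 other transfection and 14 had ratios below 0 in both. The small nucleolar RNA list held 11 of the 47, some of them listed at 0 in siUXT TNF. ABCG4, a sterol transporter gene, had 1.19 FPKM in siUXT TNF and 20.5 FPKM in siUXT PBS, against 1.91 and 1.45 FPKM in siEZH1 and 1.87 and 1.61 FPKM in NC. HILPDA, a hypoxia-induced lipid droplet protein gene, had 16.0 FPKM in siUXT TNF and 53.2 FPKM in siUXT PBS, against 34.5 and 24.7 FPKM in siEZH1 and 20.3 and 22.4 FPKM in NC. In both genes the siUXT PBS value was the highest of the 6. SPRY2, a feedback inhibitor of receptor tyrosine kinase signalling, had 2.01 FPKM in siUXT TNF and 8.09 FPKM in siUXT PBS. Over the mean of the other PBS libraries none of the 3 was 2-fold lower in siUXT TNF, with ratios of -0.21 for ABCG4, -0.53 for HILPDA and -0.83 for SPRY2. Among 34 glycolysis and hypoxia loci none was at least 2-fold lower, but the median was -0.30. By limma the response was lower in siUXT at 17 and higher at 3, against 13.2% lower and 18.4% higher of all loci tested. The glucose transporter gene SLC2A1 had 56.5 FPKM in siUXT TNF and 108 FPKM in siUXT PBS, against 51.2 and 56.9 FPKM in siEZH1 and 80.6 and 87.5 FPKM in NC. Over the mean of the other PBS libraries the median of that list was 0.02.

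The genes of the ID and BMP feedback list, which restrain differentiation and answer BMP signals, were led by genes that were lower under TNF in all 3 transfections. ID2 had 33.3 FPKM in siUXT TNF and 66.5 FPKM in siUXT PBS, against 36.8 and 85.4 FPKM in siEZH1 and 36.2 and 105 FPKM in NC. GATA2, a zinc finger transcription factor, had 9.62 FPKM in siUXT TNF and 25.0 FPKM in siUXT PBS, against 11.3 and 20.6 FPKM in siEZH1 and 9.71 and 23.2 FPKM in NC. For both genes all TNF libraries lay below all PBS libraries, with no overlap. ID3 had 96.9 FPKM in siUXT TNF and 164 FPKM in siUXT PBS, and the homeobox gene MSX2 had 9.05 and 14.5 FPKM. No locus of the 11 was above 0 in siUXT; 1 was at least 2-fold lower, and the median was -0.60 in siUXT, -0.28 in siEZH1 and -0.36 in NC. With the other PBS libraries as the baseline 2 of the 11 were at least 2-fold lower in siUXT TNF, with a median of -0.56. RGS2, an inhibitor of G protein signalling, was lower under TNF in siEZH1 and NC, and its 2 siUXT values were nearly equal. It had 9.88 FPKM in siUXT TNF and 10.3 FPKM in siUXT PBS, against 23.2 and 45.6 FPKM in siEZH1 and 11.6 and 25.5 FPKM in NC, and both siUXT libraries lay below the other 4.

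The NF-kB type letters differed in frequency between the groups of loci. Of the 53 loci higher in all 3 transfections, 45 were matched to a promoter and 15 of these (33.3%) held GGANNTTCC on either strand. Among the loci higher in siUXT only it was 34 of 550 (6.18%), among those lower in siUXT 1 of 17 (5.88%), among all loci of the comparison 373 of 8707 (4.28%) and among all RefSeq promoters supplied 1253 of 27305 (4.59%). Median GC content was 66.0% for the loci higher in all 3 transfections, 64.7% for those higher in siUXT only and 66.0% for all. A match is a description of the letters and not a bound site, and the shares carry no test. Other forms of the NF-kB sequence were not searched.

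**Figure D4:**
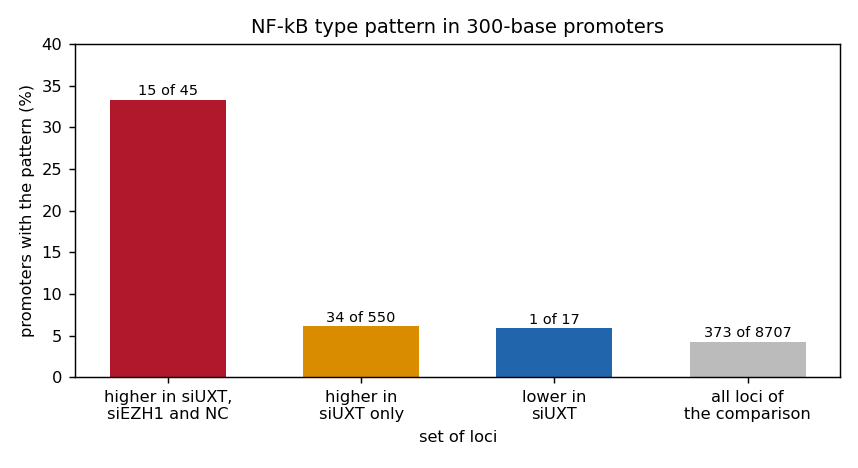
Bars give the share of 300-base promoters that hold GGANNTTCC on either strand, with the counts above each bar, for loci at least 2-fold higher in all 3 transfections, at least 2-fold higher in siUXT only, at least 2-fold lower in siUXT, and all loci of the comparison. The first bar stands at 33.3% and the others between 4.28% and 6.18%.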

How the data were processed

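RNA from 6 HCT116 conditions was compared with 1 library each, grouped by the sample labels. The authors deposited 1 table of FPKM per gene symbol and library; the unit is taken from the deposited tables' names and values. Per the submitters' processing notes, FastQC, cutadapt, TopHat2, Bowtie, SICER and the build hg19 were used; the sources used here do not give their versions, the program behind the FPKM values, the annotation or the use of strand. Read counts are not given either, so no count model was run and no interval can be put on a single value. A value of exactly 0 is described only as listed at 0.

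From these values, 1 entry that names no gene was left out, and symbols whose values were the same in each of the 6 libraries became 1 locus, since their values cannot be assigned to 1 gene. This applies to 1035 of the 11799 loci, and 382 hold several protein-coding genes; genes that overlap, lie antisense or are near copies of others are uncertain, and small nucleolar RNAs, often listed at 0 in one library and high in another, were not interpreted singly. Ratios are log2 of FPKM + 1 for loci that averaged at least 1 FPKM over siUXT TNF and siUXT PBS, with 2-fold as the limit for counts and no test. Where low values (under 0.4 FPKM) are steps of single fragments, the most frequent ratio of siUXT TNF to siUXT PBS (369 of 1629 low loci, tolerance 2%) gave a relative depth of 1.01, against 0.704 for siEZH1 TNF over siEZH1 PBS and 0.719 for NC TNF over NC PBS.

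The difference between the siUXT response and the mean of the siEZH1 and NC responses was tested with limma 3.58.1 in R 4.3.3 (lmFit, then eBayes with trend, log2 of FPKM + 1, Benjamini-Hochberg adjustment, threshold 0.05) on 11844 loci that averaged at least 1 FPKM over all 6 libraries; 11666 of them are among the 11799. The fit leaves 1 residual degree of freedom with 5.18 prior ones, and its script was tested on simulated data. As the labels do not name separate cultures, its p-values measure only the spread between these libraries, which may be technical. Python 3.11.15 with pandas 2.3.3 and numpy 2.4.6 did the rest, and promoters came from RefSeq on GRCh38.p14, matched by symbol.

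The loci, the 35 gene lists and the rule for named genes were chosen with earlier results of these data known. Named genes were the largest rises and falls of single protein-coding loci in siUXT, the largest shared with siEZH1 and NC or flat there, up to 4 members per list and a few fixed genes. Alternatives were a pseudocount of 0.1 FPKM, other filters, size factors, another merging, other PBS baselines, protein-coding loci only, and limma without trend or with robust estimation.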

Additional observations from a re-analysis of the deposited data

Results flagged for a closer look

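By the limma test of the difference itself (adjusted p under 0.05), the TNF response was higher in siUXT than in siEZH1 and NC at 2180 loci and lower at 1563. Without the trend in limma these counts were 1417 and 180, and with no filter on low values limma called 0 loci either way, with 4866 of 17641 loci at an unadjusted p under 0.05. The test rests on 1 siUXT pair, so an effect of UXT knockdown and the state of the siUXT PBS library cannot be told apart.

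The same test singled out genes of the lists, which were named for the size of their siUXT ratio, so the size of each difference is a description. For genes with ratios above 0 in all 3 transfections, the log2 difference between the siUXT response and the mean of the other responses was below 0 for BCL3 (-1.13), IRF1 (-1.0), ICAM1 (-0.89), JUNB (-0.87), TNFAIP2 (-0.83), CXCL3 (-0.79), RELB (-0.74) and NFKB2 (-0.61). It was above 0 for BIRC2 (1.49), PMAIP1 (1.25), IFNGR1 (1.19) and EREG (0.73), and it was -0.47 for ID3, which was lower under TNF.

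The difference was also above 0 for list genes that were low in siUXT PBS: PTGES3 (2.42), PFDN4 (2.31), CDK1 (2.03), SUZ12 (1.98), TTK (1.93), NBN (1.61), CHUK (1.60), EED (1.47), EPCAM (1.34) and EZH2 (0.69). It was below 0 for SLC2A1 (-0.80), which was high in siUXT PBS.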

How the results depend on the processing

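The count of loci at least 2-fold higher in siUXT TNF, 792 over siUXT PBS, was 135 over the mean of siEZH1 PBS and NC PBS and 141 over NC PBS alone; under the other settings it stayed within 1.5 times of 792. The count of lower loci, 47, was 150 with a pseudocount of 0.1 FPKM, 25 with a mean of at least 5 FPKM, 24 among protein-coding loci, 18 over the mean of the other PBS libraries and 27 over NC PBS. The limma counts of 2180 higher and 1563 lower were 1417 and 180 without trend, and 0 and 0 by limma with no filter on the mean, where 4866 of 17641 loci had an unadjusted p under 0.05; why was not tested. Over the mean of the other PBS libraries, the log2 ratio in siUXT TNF turned below 0 for CDK1 (-0.40), CHUK (-0.14), EED (-0.14), EPCAM (-0.10), GMFB (-0.42), NBN (-0.29), PFDN4 (-0.12), PTGES3 (-0.38), RAP1B (-0.13), SUZ12 (-0.49), SYNC (-0.32), TMEM123 (-0.26), TTK (-0.53), VPS26A (-0.27) and XPO1 (-0.29). Over NC PBS alone it did so for CDK1 (-0.20), CHUK (-0.030), GMFB (-0.25), NBN (-0.15), PTGES3 (-0.24), SUZ12 (-0.15), TTK (-0.30) and XPO1 (-0.10). Leaving out a siEZH1 or NC library leaves no residual degrees of freedom for the limma test. Leaving out a siUXT library leaves no siUXT response to test, so only the baselines above leave out siUXT PBS. The labels give no replicate numbers, and the limma model already compares TNF with PBS within each transfection. The number of libraries, 1 per condition, limits every ratio, and without read counts the error of low values such as REL is unknown.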

Other observations

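Some further gene lists had medians that moved with the choice of PBS library. Of 36 cilium and centrosome loci 2 were at least 2-fold higher in siUXT TNF and none lower, against 6.71% of all loci higher, with a median log2 ratio of 0.38 over siUXT PBS and -0.12 over the mean of the other PBS libraries. Of 45 nuclear pore and transport loci 4 were at least 2-fold higher, also near the 6.71% of all loci, with a median of 0.31 over siUXT PBS and -0.12 over the other PBS libraries. Of 79 cytoplasmic ribosomal protein loci 1 was at least 2-fold higher, a share below that of all loci, with a median of -0.14 over siUXT PBS and 0.01 over the other PBS libraries. In the p53 target list 4 of 33 loci were at least 2-fold higher over siUXT PBS. Over the mean of the other PBS libraries 3 were, and none of these was among the 4. The 4 were PMAIP1, CCNG1, RRM2B and ZMAT3, with ratios of 0.78, -0.32, -0.08 and -0.03 over the mean of the other PBS libraries. The list median moved little, from 0.31 to 0.24, and it was 0.00 in siEZH1 and 0.14 in NC. The 50 small nucleolar RNA loci gave 12 higher and 11 lower in siUXT TNF, 4 higher and 8 lower in siEZH1 TNF, and 4 higher and 8 lower in NC TNF. Of all loci 6.71% were higher and 0.398% lower in siUXT TNF. The same shares were 0.983% and 0.246% in siEZH1 TNF and 1.2% and 0.153% in NC TNF. Some of the small nucleolar RNA loci were listed at 0 in 1 library and above 0 in another.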
